A study of Mus musculus with 24 samples.

Results

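The heat shock chaperones examined here were 10 genes, chosen by symbol among the 55177 genes of the matched annotation: Hspa1a, Hspa1b, Hspa8, Hspa5, Hsp90aa1, Hsp90ab1, Hsph1, Dnajb1, Hspb1 and Hsf1. All 10 had enough counts to be tested at both culture ages. RNA was sequenced in 24 libraries of primary cortical neurons, cultured from mouse embryos at embryonic day 16.5 for 7 or 18 days in vitro (DIV7, DIV18). Every culture was first kept silent overnight by the sodium channel blocker tetrodotoxin (1 µM) and the NMDA receptor antagonist D-AP5 (100 µM). KCl at 50 mM was then given for 30 min to the depolarized ones, in a buffer that also added calcium, magnesium and HEPES. Resting wells had medium removed and returned with nothing added. The design crosses this stimulus with changes of Smarcc2, which encodes a core scaffold protein of the BAF chromatin remodeler.

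The DIV7 groups were unmodified wild-type neurons in 0.1% DMSO, 2 libraries at rest and 2 after KCl. At DIV18 the control carried a non-targeting guide RNA (NT, 2 at rest and 2 after KCl). The other DIV18 cultures were Smarcc2 knockouts with an added construct. That was the vector (Vec, 3 and 3), wild-type Smarcc2 (WT, 2 and 3), Smarcc2 S586E (3, at rest only) or Smarcc2 S586A (2, after KCl only). S586E and S586A exchange the same serine for glutamate and for alanine. The knockout cultures kept residual Smarcc2 RNA. The protocol counted the cortex of each embryo as a replicate. The labels do not tie a library to an embryo, so p-values measure the spread between libraries, which may be technical in part.

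Chaperones bind unfolded protein. Hsp70 proteins (Hspa genes) hold and release clients with the help of J-domain partners such as Dnajb1 and exchange factors such as Hsph1, Hsp90 proteins finish the folding of kinases and receptors, and the small heat shock protein Hspb1 keeps clients from aggregating. Under proteotoxic stress the transcription factor Hsf1 is freed from chaperones and binds heat shock elements, which are repeats of GAA in alternating orientation, upstream of the inducible members Hspa1a, Hspa1b, Dnajb1, Hspb1 and Hsph1. Hsp90aa1 is the more stress-inducible of the Hsp90 pair. Hspa8 and Hsp90ab1 are made at rest in most cells, and Hspa5 is the Hsp70 of the endoplasmic reticulum (ER), driven by the unfolded protein response. Neurons are known for a weak heat shock response.

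Promoters were available from RefSeq on GRCm38.p6 for 6 of the 10 members. The 150 bases before the start site are shown for them, because the members differ in the elements they hold and in their response to KCl. Capitals mark GAANNTTC or TTCNNGAA, a pair of adjoining heat shock units, and in Hspa5 the ER stress element.
Hspa1a (chr17:34972157-34972306, minus strand): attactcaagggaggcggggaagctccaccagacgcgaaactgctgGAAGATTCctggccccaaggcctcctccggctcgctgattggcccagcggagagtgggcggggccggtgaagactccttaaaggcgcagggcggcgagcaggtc
Hspa1b (chr17:34959239-34959388, minus strand): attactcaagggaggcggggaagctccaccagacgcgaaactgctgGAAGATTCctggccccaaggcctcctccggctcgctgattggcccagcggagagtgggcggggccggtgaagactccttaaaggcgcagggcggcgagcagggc
Hspb1 (chr5:135887769-135887918, plus strand): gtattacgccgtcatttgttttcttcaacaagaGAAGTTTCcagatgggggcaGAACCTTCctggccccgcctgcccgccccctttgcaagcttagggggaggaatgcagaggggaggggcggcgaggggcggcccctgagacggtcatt
Hsph1 (chr5:149636316-149636465, minus strand): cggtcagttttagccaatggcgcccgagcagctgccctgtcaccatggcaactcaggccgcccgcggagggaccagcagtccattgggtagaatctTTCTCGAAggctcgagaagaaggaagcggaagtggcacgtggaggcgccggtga
Dnajb1 (chr8:83608025-83608174, plus strand): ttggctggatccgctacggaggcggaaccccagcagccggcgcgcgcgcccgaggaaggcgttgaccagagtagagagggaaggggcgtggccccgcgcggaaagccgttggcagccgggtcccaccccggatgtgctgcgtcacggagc
Hspa5 (chr2:34771940-34772089, plus strand): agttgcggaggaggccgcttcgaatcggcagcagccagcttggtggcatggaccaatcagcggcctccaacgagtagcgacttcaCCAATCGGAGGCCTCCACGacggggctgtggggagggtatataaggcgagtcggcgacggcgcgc

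The Hspa1a and Hspa1b promoters were identical at 149 of these 150 bases, and both held GAANNTTC from base -104 to -97 of the start site. Hspb1 held it from -117 to -110 and from -97 to -90, and Hspa5 held the ER stress element from -65 to -47. Hsph1 alone among the 6 held a heat shock element of 3 units on either strand, and it lay after the start site, from base 15 to 27 (36 to 48 from a second RefSeq start), within this stretch of 30 bases on the minus strand.
Hsph1 element (chr5:149636280-149636309, minus strand): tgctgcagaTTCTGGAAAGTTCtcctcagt
Over windows of 300 bases, of which the last 50 follow the start site, the 3-unit element occurred in 0.603% of 32851 promoters, GAANNTTC in 7.86%, TTCNNGAA in 8.52% and the ER stress element in 0.119%. The 3-unit element contains both 2-unit patterns. Dnajb1 had a second RefSeq window, from 83608298 to 83608597 on chromosome 8, and neither of its windows matched any of these patterns. That second window holds the annotated start of the transcript Dnajb1-202, described below. The cyclic AMP response element TGACGTCA, present in 1.79% of promoters, was found in none of the 6. A match describes letters only, not binding. Only exact matches within these windows were counted, so variant or more distant elements were not searched for.

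The 4 DIV7 libraries held 24536056 to 30135576 estimated counts each, and the 20 DIV18 libraries 14510199 to 24024959. The labels' constructs showed in Smarcc2 RNA, which lay at 237 to 283 CPM (counts scaled to a common library total) in NT and 47.1 to 64.1 in Vec. With Smarcc2 added it lay, at rest, at 756 to 816 CPM in WT and 1164 to 1276 in S586E. After KCl it lay at 737 to 1089 CPM in WT and 1303 to 1340 in S586A. The mutant contrasts against WT therefore differ in Smarcc2 RNA level as well as in residue. The stimulus showed in Fos, an activity-induced transcription factor gene, which went from 3.65 and 4.47 CPM at rest to 598 and 618 CPM at DIV7, and from at most 8.34 to between 32.7 and 197 CPM at DIV18. Neuron markers were high throughout (5 genes, summed 2843 to 3771 CPM). Astrocyte markers (6 genes) summed to 489 to 584 CPM at DIV7 and 738 to 1762 CPM at DIV18, and oligodendrocyte markers (7 genes) to 57.0 to 67.6 and 104 to 211 CPM. Within the astrocyte list Slc1a2 differed most in CPM, with resting means of 287 at DIV7 and 1159 in NT. Aqp4 (20.6 against 9.27 CPM) and Slc1a3 (114 against 105 CPM) had lower resting means in NT, and Gfap, Aldh1l1 and Gja1 higher ones. In bulk RNA, fewer cells of a type and less RNA per cell cannot be told apart. Levels at DIV7 and DIV18 were also scaled separately, from poly(A) RNA and total RNA libraries. Culture day and library type therefore cannot be told apart in them.

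At rest the members differed widely in level, with Hspa8 first and Hspb1 last in DIV7 and NT cultures. The unit TPM, which scales counts for transcript length and library size, was used to rank genes within a culture type. In resting DIV7 cultures Hspa8 came first at 1795 ± 165 TPM (SD, n = 2), and Hsp90ab1 (1504 ± 59.3) and Hsp90aa1 (1103 ± 7.04) followed. Hspa5 stood at 534 ± 48.8 TPM and Hsph1 at 219 ± 8.61 TPM. The regulator Hsf1 was at 36.4 ± 1.64 TPM and Dnajb1 at 19.9 ± 1.10 TPM. Hspa1a (7.28 ± 0.584) and Hspa1b (6.49 ± 2.03) did not differ beyond their spread, and Hspb1 was last at 0.794 ± 0.167 TPM, resting on 8 and 9 counts. In resting NT cultures at DIV18 the first 3 kept this order (528 ± 32.5, 438 ± 23.3 and 321 ± 4.94 TPM). Hspa5 (135 ± 31.2) and Hsph1 (126 ± 7.17) overlapped there, as did Hsf1 (9.37 ± 1.91), Hspa1b (7.33 ± 3.47) and Dnajb1 (7.04 ± 1.37), and Hspa1a (3.19 ± 1.08) overlapped with Hspb1 (2.27 ± 0.918).

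**Figure D1:**
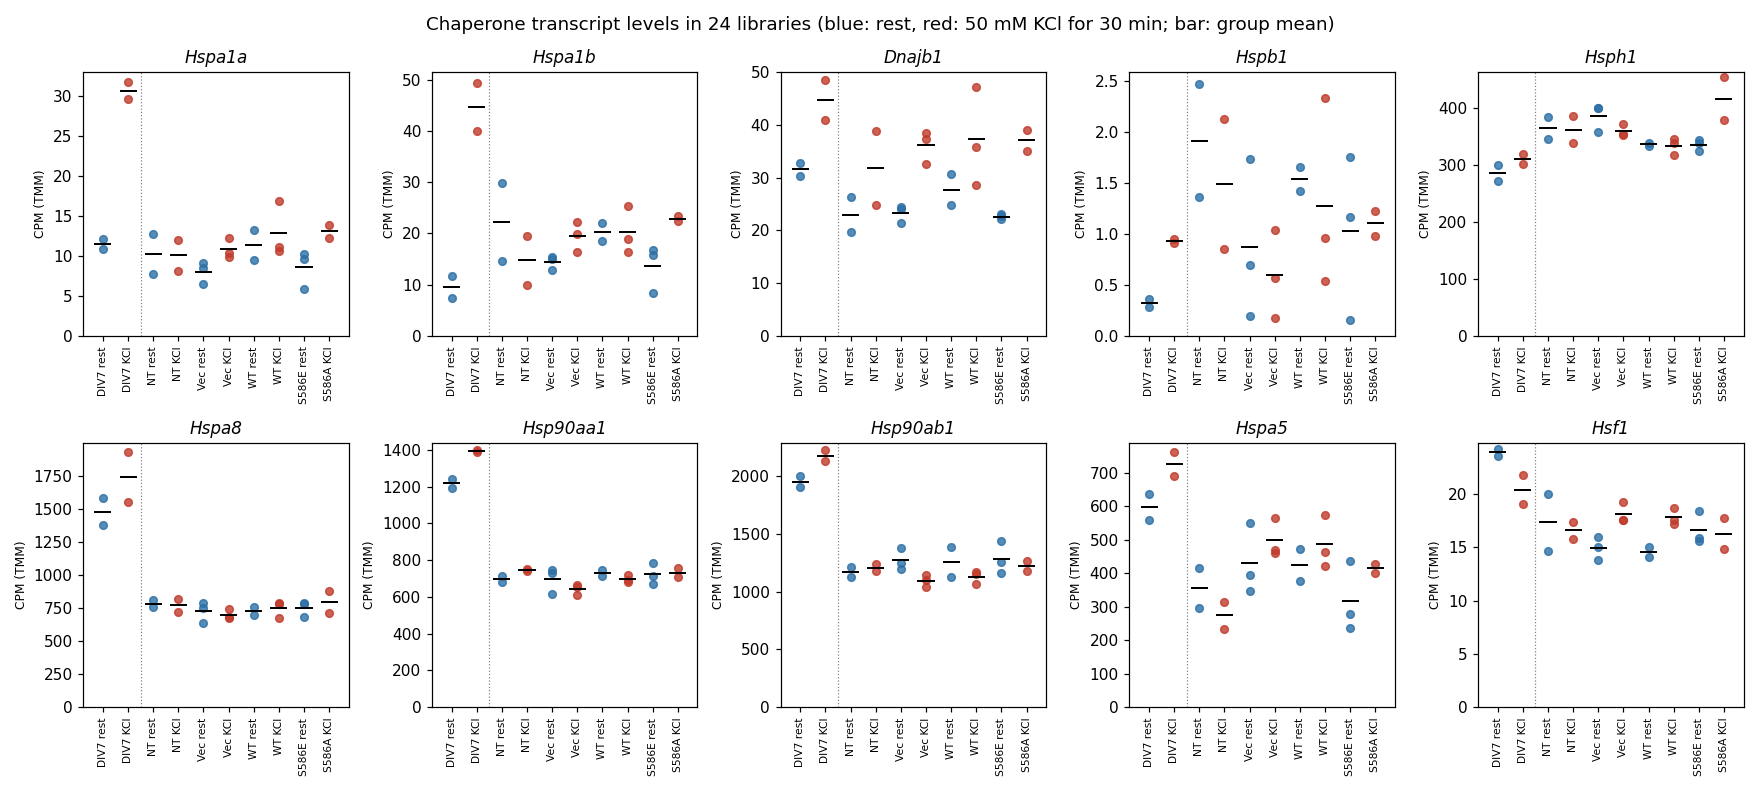
Each panel plots 1 member in CPM on a linear axis from 0. Points are libraries, blue at rest and red after 30 min of KCl, and bars are group means, with DIV7 left of the dotted line and DIV18 right of it (scaled separately). Hspa1a and Hspa1b stand apart after KCl at DIV7, at 29.6 to 31.7 and 40.1 to 49.5 CPM.

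At DIV7, 30 min of KCl raised the RNA of the inducible chaperones Hspa1a, Hspa1b and Dnajb1. By smaller amounts, Hspa5, Hsp90aa1 and Hsp90ab1 rose too. Hspb1 was also higher, but on 8 and 9 resting counts, and was called in 4 of 12 alternative ways of processing. Of the 10 members, 7 passed the test (edgeR, Benjamini-Hochberg adjusted p under 0.05), all of them higher after KCl, against 17.0% of all 19822 genes tested. The members' median log2 fold change was 0.26, beside a median near 0 for all genes. Both comparisons are descriptions, because the members were chosen with earlier results of these data known. Hspa1b, a stress-inducible Hsp70, was at 7.47 and 11.8 CPM at rest and at 40.1 and 49.5 CPM after KCl. Every depolarized library lay far above every resting one, a 4.69-fold rise (log2 2.23, SE 0.195, adjusted p 0.000923, edgeR). Its neighbour Hspa1a went from 10.8 and 12.1 CPM to 29.6 and 31.7 CPM, again without overlap, a 2.68-fold rise (log2 1.42, SE 0.0924, adjusted p 0.000241, edgeR).

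The levels of this pair are uncertain one by one. Of the 31-base windows of Hspa1b transcripts 67.6% also occur in Hspa1a. Summed, the pair rose from 18.3 and 23.9 CPM to 69.7 and 81.2 CPM (log2 1.84, SE 0.129, adjusted p 0.000372, edgeR).

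Dnajb1, the J-domain partner that hands clients to inducible Hsp70, was at 30.3 and 32.8 CPM at rest and at 41.0 and 48.6 CPM after KCl, a 1.42-fold rise (log2 0.51, SE 0.0957, adjusted p 0.0139, edgeR). The groups did not overlap. Without the first resting library the adjusted p was 0.0800 (edgeR). Hspb1 rose 2.88-fold (log2 1.53, SE 0.365, adjusted p 0.0313, edgeR), but from 8 and 9 counts to 27 and 26 counts. With DESeq2 its adjusted p was 0.219, and leaving out any of the 4 libraries ended the call. Hsph1, the exchange factor with the 3-unit element, stood at 300 and 272 CPM at rest and at 319 and 302 CPM after KCl (log2 0.12, adjusted p 0.218, edgeR). Its call was not made, although no depolarized library lay below a resting one.

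The abundant members moved by small amounts. Hsp90aa1 was at 1243 and 1193 CPM at rest and at 1397 and 1388 CPM after KCl, a 1.14-fold rise (adjusted p 0.0118, edgeR), and Hsp90ab1 rose 1.12-fold (2001 and 1905 CPM to 2229 and 2133 CPM, adjusted p 0.0321). Both differences exceeded the spread between libraries, but each lost its call without the second resting library (adjusted p 0.0501 and 0.120), Hsp90ab1 also without the first depolarized one (0.141). Hspa8 was at 1374 and 1579 CPM at rest and at 1549 and 1931 CPM after KCl, ranges that overlap (log2 0.24, adjusted p 0.172). Hspa5 rose 1.21-fold, from 560 and 636 CPM to 689 and 762 CPM (adjusted p 0.0394), and lost its call without the first resting library (adjusted p 0.143) or the second depolarized one (adjusted p 0.117). Hsf1 was at 23.6 and 24.3 CPM at rest and at 19.1 and 21.8 CPM after KCl (log2 -0.23, adjusted p 0.135).

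Other chaperone families at DIV7 are read against the same background of 17.0% of all genes. Of 41 further cytosolic chaperones and cochaperones, 4 passed: the Hsp110 gene Hspa4 (log2 0.24), the J proteins Dnaja1 (0.20) and Dnajb6 (0.16) rose, and Dnajb5 fell by 0.70 on the log2 scale. Of 25 genes of ER folding and the unfolded protein response 10 passed. Dnajb9, an ER J protein (log2 0.99), and Atf4, a stress transcription factor (0.60), rose, while 8 fell. The falls were led by Trib3, an Atf4 and Ddit3 target (log2 -2.31), Ern1, which encodes the ER stress sensor Ire1 (-1.21), Sdf2l1 (-0.67), Creld2 (-0.50) and Chac1 (-0.44). Of 9 mitochondrial chaperones only Hspa9, their Hsp70, passed (log2 0.21), and none of the 8 subunits of the cytosolic chaperonin CCT did (edgeR, adjusted p 0.05).

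At DIV18 none of the 10 members passed in NT (background 0.00955% of 20940 genes), Vec (0.0716%) or WT (0.0430%) cultures taken alone. At an unadjusted p under 0.05 stood Dnajb1 in all 3, Hsf1 in Vec and WT, and Hsp90ab1 in Vec, where 906 genes in NT, 2167 in Vec and 1040 in WT did so over all 20940. Averaged over the 3 constructs, 1 member passed, Dnajb1, against 0.449% of all genes. Hspa1b was at 14.7 and 29.8 CPM in resting NT cultures and at 19.5 and 9.93 CPM after KCl, so the groups overlapped (log2 -0.59, 95% interval -1.28 to 0.10). Its mean DIV18 response was -0.05 (95% interval -0.42 to 0.31), and that of Hspa1a was 0.20 (-0.13 to 0.52). None of the 41 cytosolic, 25 ER, 9 mitochondrial or 8 CCT genes passed in this mean response, whereas all 6 early-response genes did.

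**Figure D2:**
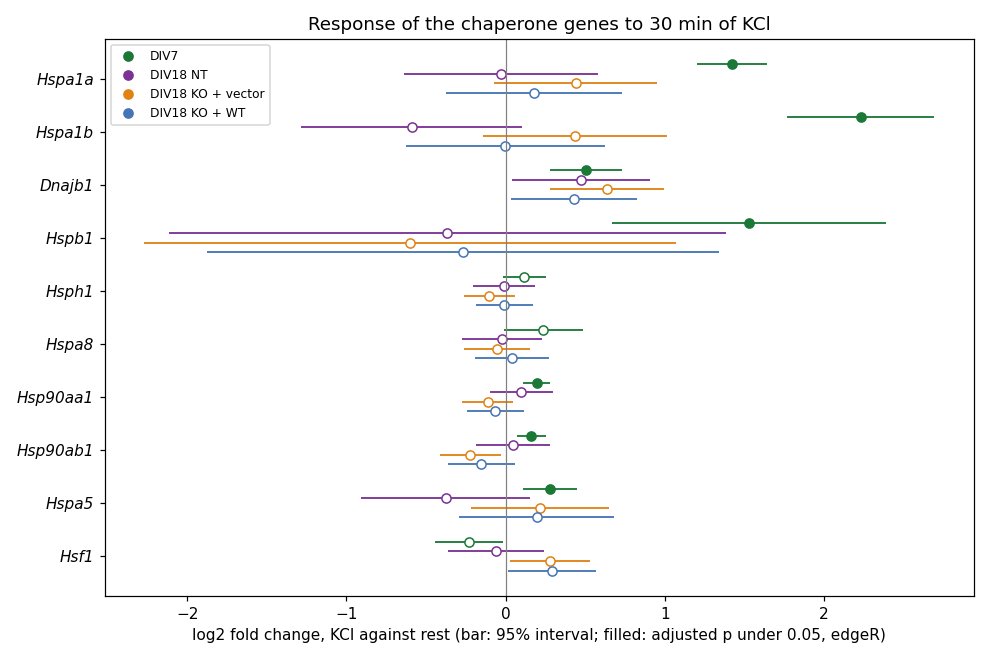
The horizontal axis gives the log2 fold change of KCl against rest, with 95% intervals, for each member (rows) at DIV7 and in 3 DIV18 culture types (colours). Filled points passed adjusted p 0.05 (edgeR). Hspa1a and Hspa1b lie at 1.42 and 2.23 at DIV7, beyond all DIV18 intervals.

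Dnajb1 was at 19.6 and 26.2 CPM in resting NT libraries and at 38.8 and 24.8 CPM after KCl. In Vec it was at 24.4, 21.5 and 24 CPM at rest and at 37.3, 38.5 and 32.6 CPM after KCl. In WT it was at 30.6 and 24.7 CPM at rest and at 47.1, 35.9 and 28.7 CPM after KCl. The groups were apart in Vec and overlapped in NT and WT. The resting S586E libraries lay between 22.1 and 23.1 CPM and the depolarized S586A libraries at 35.1 and 39.0 CPM. The mean response was 1.43-fold (log2 0.51, SE 0.109, 95% interval 0.28 to 0.74, adjusted p 0.0437, edgeR). This call was narrow: leaving out 13 of the 15 libraries, each in turn, moved the adjusted p above 0.05 (to at most 0.229), while the estimate stayed between 0.39 and 0.58. The call also ended with length offsets (adjusted p 0.0582), with coding transcripts only (0.0540) and in a fit of these 3 constructs alone (0.109), and held with DESeq2. Its DIV7 response minus the NT response was log2 0.05 (95% interval -0.53 to 0.63, adjusted p 0.995), an interval too wide to show that they are alike.

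The annotated transcripts of Dnajb1 did not share this rise evenly at DIV18. Dnajb1-201 starts at 83608193 on chromosome 8 (plus strand) and has its start codon in exon 1. Dnajb1-202 starts at 83608553, carries its start codon in exon 2, and so lacks the coding part of exon 1, where the J domain begins. In resting NT, Vec and WT cultures the short form held 0% to 16.2% of Dnajb1 counts, and after KCl 11.1% to 27.3%. Its level was 0.549 ± 0.777 CPM in NT (SD, n = 2), 2.05 ± 0.672 in Vec (n = 3) and 3.10 ± 1.28 in WT (n = 2) at rest, and 6.35 ± 4.63 (n = 2), 8.58 ± 2.11 (n = 3) and 7.43 ± 4.03 (n = 3) after KCl. Within construct, the share was 12.6 percentage points higher after KCl (exact permutation test within NT, Vec and WT, two-sided p = 0.0025, 1200 arrangements, 7 libraries against 8). On the log2(CPM + 0.1) scale the short form was higher by 2.38 (exact permutation p = 0.0025) and the long form by 0.28 (exact permutation p = 0.050).

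At DIV7 the short form stayed at 1.18 and 1.62 CPM at rest and 1.91 and 0.861 CPM after KCl, while the long form went from 29.1 and 31.2 CPM to 39.1 and 47.7 CPM. Its share there was 1.77% to 4.93%. The first exon of Dnajb1-202, from 83608553 to 83608760, lies inside the first intron of Dnajb1-201 (exon 1 ends at 83608542, exon 2 begins at 83609814). The DIV18 libraries were made from total RNA and the DIV7 libraries from poly(A) RNA, so short-form RNA and unspliced RNA of the long form cannot be told apart here. This comparison of forms was chosen after their values were seen. Without each library in turn the share difference ran from 10.5 to 14.6 points, with exact permutation p at most 0.0125.

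**Figure D3:**
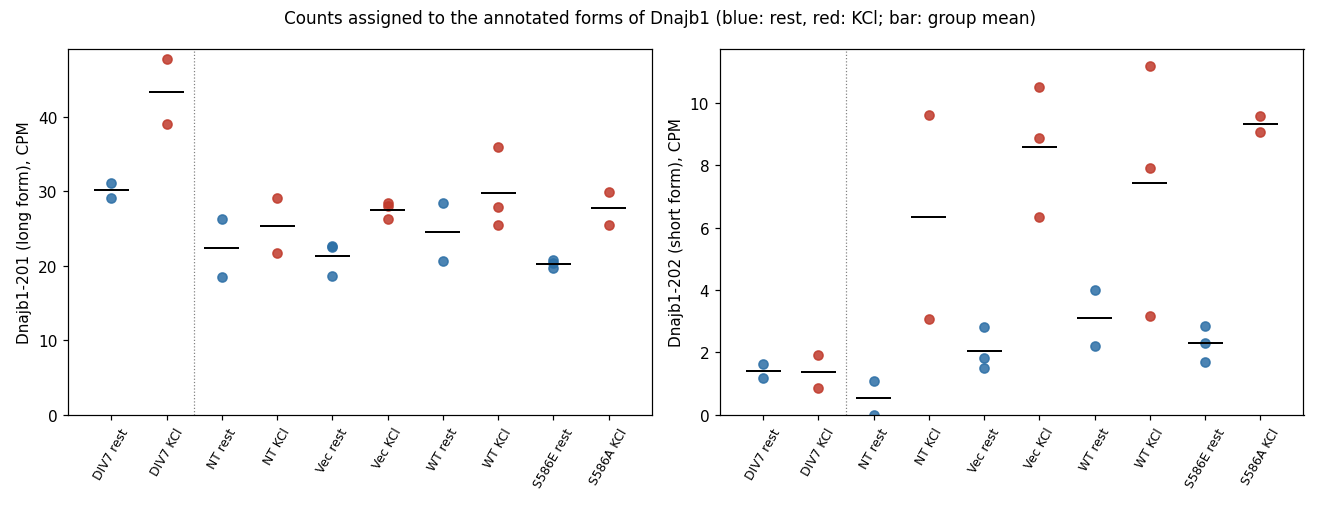
CPM assigned to the long form (left) and the short form (right) of Dnajb1 are plotted for each library, blue at rest and red after KCl, with bars at group means. Among DIV18 libraries the short form spans 0 to 4.01 CPM at rest and 3.08 to 11.2 CPM after KCl, and at DIV7 it stays below 2 CPM in both states.

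Depolarized DIV18 libraries differed in the strength of the stimulus response, and Dnajb1 varied with it. Fos lay at 32.7, 38.5 and 51.2 CPM in WT replicate 3, NT replicate 2 and Vec replicate 3 and between 99.8 and 197 CPM in the other 7. Dnajb1 was lowest in those same 3 libraries (28.7, 24.8 and 32.6 CPM) and highest, at 47.1 CPM, in the WT library with the most Fos. Over the 10 libraries Pearson's r between log2 levels was 0.939 (permutation p = 0.00024, adjusted 0.0024 over 10 members) and Spearman's rho 0.855 (permutation p = 0.00276). Without the libraries farthest from the Fos median r was 0.917, and centred within construct 0.949. These values sum both forms of Dnajb1. In the 3 libraries lowest in Fos the long form was at 25.5, 21.7 and 26.2 CPM, overlapping the other 7 (25.5 to 36.0 CPM). The short form, which cannot be told apart from unspliced RNA, was at 3.18, 3.08 and 6.34 CPM there, against 7.91 to 11.2 CPM. The relation of each form to Fos was not tested. Hspa1b gave r = 0.817 (permutation p = 0.00189, adjusted 0.00945) but rho = 0.624 (permutation p = 0.0609), and without the farthest libraries r was 0.813. Hspa1a gave r = 0.735 (permutation p = 0.0146, adjusted 0.0487) and rho = 0.418 (permutation p = 0.234), with r = 0.758 without the farthest libraries. For the other 7 members the adjusted permutation p was at least 0.836. This relation too was chosen after the values were seen, and both genes of each pair were scaled by the same library factor.

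**Figure D4:**
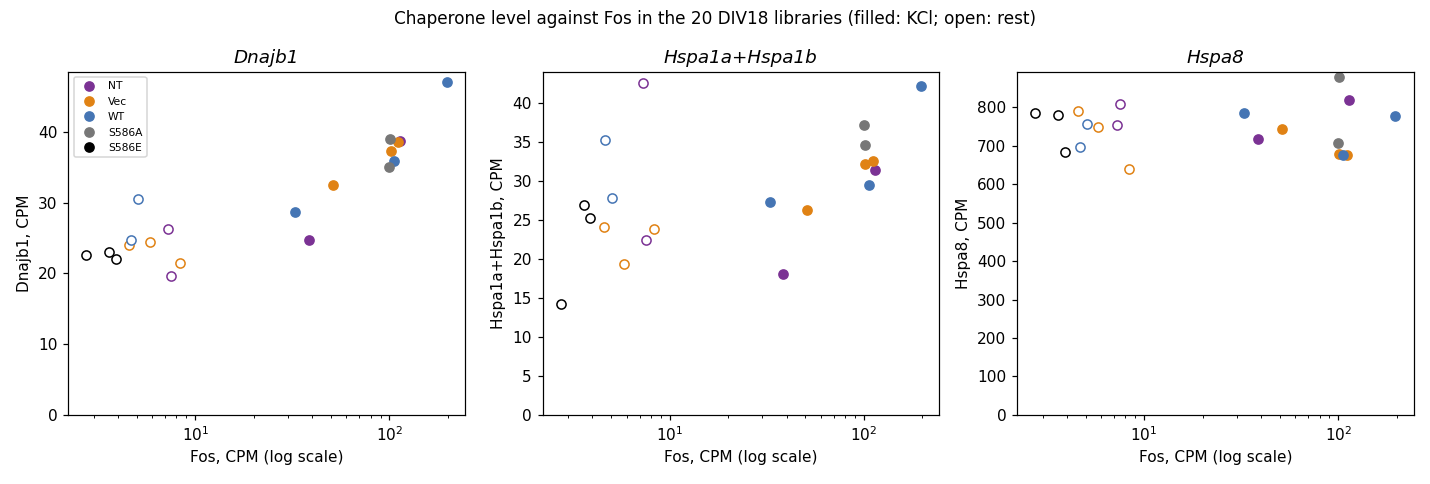
Each point is a DIV18 library, filled after KCl and open at rest, coloured by construct, with Fos in CPM on a log axis and the chaperone in CPM on a linear axis. Dnajb1, with both forms summed, lies at 24.8 to 32.6 CPM in the 3 depolarized libraries lowest in Fos and at 35.1 to 47.1 CPM in the other 7. For Hspa8 r was 0.0028.

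The Hsp70 response differed between ages. The DIV7 response of Hspa1b exceeded the NT response at DIV18 by log2 2.83 (SE 0.469, 95% interval 1.85 to 3.81, adjusted p 0.00135, edgeR), against 1.82% of 22459 genes passing. For Hspa1a the excess was 1.47 (SE 0.380, adjusted p 0.0511), and for the summed pair 2.25 (SE 0.415, adjusted p 0.00399). No other member passed. Over all genes 110 responses were larger and 298 smaller at DIV7. Dnajb9 passed in the same direction (log2 1.06), and Dnajb5 (-0.83), Ern1 (-1.12) and Trib3 (-2.04) in the other. Age goes with DMSO, guide RNA and library type, which cannot be told apart. The stimulus also registered differently: 6 early-response genes summed to 47.9 and 50.4 CPM at rest and 2407 and 2535 CPM after KCl at DIV7, and to 165 and 166 CPM at rest and 442 and 914 CPM after KCl in NT. The part this has in the Hspa1b difference was not tested.

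No member passed in the contrasts between constructs. At most 5.90% of all genes passed in any of them, so this does not set the members apart. None of the 10 passed between Vec and NT at rest, where 5.90% of all genes did, or under KCl, where 2.67% did. Adding back wild-type Smarcc2 to the knockout gave no member at rest (0.0143% of genes) or under KCl (0.00955%). S586E against Vec (0.0191%) and S586A against Vec (0.00955%) likewise gave none. S586E against WT and S586A against WT gave 0% over all genes by edgeR, with 2696 and 1824 genes at an unadjusted p under 0.05. The KCl response of Vec against that of NT, and of WT against that of Vec, also gave 0% (1845 and 768 genes at an unadjusted p under 0.05). DESeq2 called no member in the S586E and S586A contrasts or in these 2 response differences. Over these 10 contrasts the narrowest interval was that of Hsph1 in WT against Vec under KCl, from log2 -0.27 to 0.05, and the widest that of Hspb1 in the Vec minus NT response, from -2.63 to 2.16.

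Hspa5 came nearest to a construct difference. Under KCl it was at 315 and 233 CPM in NT, and at 461, 469 and 566 CPM in Vec, with no overlap. The log2 fold change was 0.86 (1.82-fold, SE 0.237, 95% interval 0.37 to 1.36, adjusted p 0.0590, edgeR). It passed with DESeq2 (adjusted p 0.0434), in a fit of these groups alone (0.0147), without a low-count filter and with replicate number as a block (log2 0.69, adjusted p 0.0186, edgeR), although same-numbered libraries hardly deviated together in this contrast (r = 0.024 and 0.061). It did not pass in the other 10 of 14 alternatives, with an adjusted p of 0.515 without the second NT library. WT libraries under KCl lay at 421 to 574 CPM and S586A libraries at 400 and 428 CPM, so the added Smarcc2 did not bring Hspa5 to the NT range. At rest NT (295 and 416 CPM) and Vec (347, 395 and 549 CPM) overlapped. Pdia4, a disulfide isomerase of the ER, passed under KCl (log2 0.96, adjusted p 0.0388), and 21 of the 25 ER genes had positive fold changes, with a median of 0.32, beside 52.4% of all genes with a median of 0.02. Astrocyte markers summed to 1274 and 1762 CPM in NT and 738 to 866 CPM in Vec in this contrast, and oligodendrocyte markers to 129 and 211 CPM against 112 to 132 CPM. Their part in the result was not tested.

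Some chaperones outside the 10 differed between Vec and NT, where 5.90% of all genes passed at rest and 2.67% under KCl. At rest 7 of 41 cytosolic and 2 of 25 ER genes passed, and under KCl 2 of 41 and 1 of 25. Fkbp5, an Hsp90 cochaperone (log2 0.54), Dnajb4 (0.51) and Dnajb5 (0.26) were higher in Vec. The cochaperone Tomm34 (-0.40), Hspa2 (-0.69), the small heat shock gene Hspb6 (-0.82) and Hsf4 (-1.09) were lower. Among ER genes Dnajb11 was higher (0.37) and the sensor Atf6 lower (-0.33). Under KCl Hspa4l (-0.30) and the small heat shock gene Cryab (-1.37) were lower in Vec. At rest astrocyte markers summed to 1363 and 1604 CPM in NT and 899 to 1249 CPM in Vec. Oligodendrocyte markers summed to 195 and 205 CPM against 133 to 151 CPM. Within that list Sox10 was at 2.76 and 8.40 CPM in NT and at 0 in all 3 Vec libraries. Mbp alone had a higher mean in Vec (126 CPM, against 106 CPM in NT). The part of these markers in the chaperone differences was not tested.

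Resting levels differed between DIV18 NT and DIV7 cultures for 6 members, against 52.7% of all genes. In a fit of all 24 libraries Hsph1 was at 267 and 239 CPM at DIV7 and at 392 and 352 CPM in NT (log2 0.55, adjusted p 2.59e-05, edgeR). Hspa1b was higher by 1.41 (6.66 and 10.4 CPM against 15.0 and 30.4 CPM, adjusted p 0.0013). Without the second NT library, the higher of that pair, its value was 0.81 (adjusted p 0.0773). Hspa1a differed by 0.04 (adjusted p 0.909), and the summed pair by 0.83 (adjusted p 0.0227). Hspb1, at 0.250 and 0.319 against 1.38 and 2.52 CPM, was higher by 2.76 (adjusted p 0.0132), and lost the call without either DIV7 library (adjusted p 0.0908 and 0.0574) or the second NT library (0.0908). Hsp90aa1 was lower, at 1107 and 1051 CPM against 727 and 695 CPM (log2 -0.60, adjusted p 6.19e-06), as was Hsp90ab1, at 1783 and 1678 against 1233 and 1146 CPM (log2 -0.54, adjusted p 0.000182). All 8 CCT subunits were lower too, with a median of -0.97, whereas 50.2% of all genes were higher, with a median of 0.007. Culture day, the guide RNA, DMSO and library type differ together in this contrast and cannot be told apart.

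Hspa8 had no stable direction in that contrast. It was at 1225 and 1391 CPM at DIV7 and at 824 and 768 CPM in NT, lower by 0.72 on the log2 scale (log2 -0.72, adjusted p 6.15e-05, edgeR). Gm15459 is a processed pseudogene, an intronless copy, and 91.9% of its 31-base windows occur in Hspa8. It held 16 to 72 counts at DIV7 and 11577 to 19928 counts at DIV18, where Hspa8 itself held 11390 to 19053. Summed with Gm15459, Hspa8 was higher in NT, by 0.32 (adjusted p 0.0280). The forms of Hspa8 also differed: Hspa8-201 held 52.0% of its counts in resting DIV7 cultures and 1.42% in resting NT cultures, and Hspa8-202 went from 38.0% to 79.6%. Hsp90aa1-202 went from 55.1% to 18.3% of the counts of Hsp90aa1. The sum with the pseudogene was chosen after the data were seen.

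**Figure D5:**
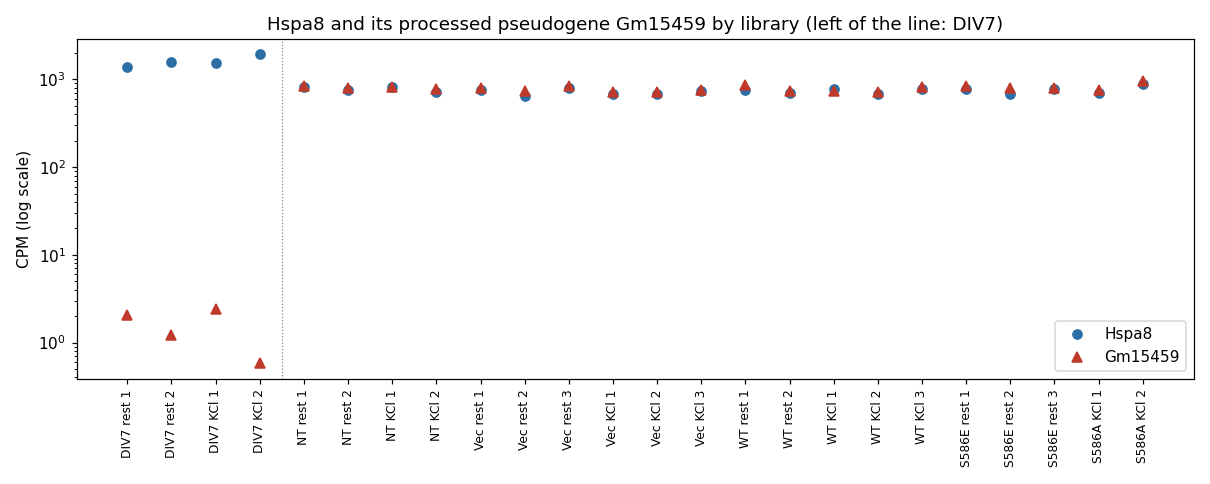
Points give Hspa8 (blue) and Gm15459 (red triangles) in each library in CPM on a log axis, DIV7 left of the dotted line and DIV18 right of it (scaled separately). Gm15459 lies between 0.581 and 2.44 CPM at DIV7 and between 709 and 961 CPM at DIV18, beside Hspa8 at 639 to 880 CPM.

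Across the 20 DIV18 libraries, which share a preparation and include both states, members varied with different genes. Among 15125 genes the levels most correlated with Dnajb1 were those of the activity-induced genes Junb (r = 0.92) and Ier2 (0.91), and of Gm38257 (0.91). Those most correlated with Hspa5 were the ER chaperone genes Hyou1 (0.94), Pdia4 (0.93) and Pdia6 (0.92). The summed Hspa1a and Hspa1b pair came with Sipa1 (0.93), Trpc1 (0.89) and Gls2 (0.88), and Hsp90aa1 with Cox7b (0.93), Rab2a (0.88) and Rtn3 (0.87). Hspa8 came with Gm15459 (0.83), Eef1a1 (0.80) and Asna1 (0.80), and Hspb1, at low counts, with Pla2g16 (0.75), Nipsnap3b (0.74) and G6pdx (0.74). Among the members themselves Hspa1a and Hspa1b were the most alike (r = 0.88), and Hspa5 and Hsp90ab1 the most opposed (r = -0.68). Of the 31-base windows of Hspa1b 67.6% occur in Hspa1a, and of those of Gm15459 91.9% occur in Hspa8. In these pairs, like levels and reads shared out between the genes cannot be told apart. All the correlations here are descriptions without a test.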

How the data were processed

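Per the file headers, the deposited tables give per transcript a length, an effective length, an estimated count and TPM. FastQC, cutadapt and kallisto are named in the submitters' processing notes, while versions, build and annotation are not given in the sources used here. Estimated counts, as the authors deposited them, can be fractional because reads that fit several transcripts are shared out, and the TPM deposited by the authors are those counts scaled by effective length. Of 142552 transcripts 99.2% matched GENCODE M21 (GRCm38), and the rest, at most 0.467% of a library, were left out. DIV7 libraries came from poly(A) RNA and DIV18 libraries from rRNA-depleted total RNA, per the labels' protocols. Strand use in counting is not given in the sources used here.

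Estimated counts were summed per gene, rounded, and tested with edgeR 4.0.16 in R 4.3.3 (quasi-likelihood F test, two-sided, TMM, filterByExpr, Benjamini-Hochberg over all genes). Fits used the 4 DIV7 libraries (2 residual degrees of freedom), the 20 DIV18 libraries (12) or all 24 (14), in 17 comparisons. CPM are TMM-scaled within a fit. TPM only rank genes within a group. Intervals are 95%. For some comparisons the tests were checked on counts simulated from the spread that the same fit had estimated. Such a check cannot show how they hold where reads are shared or libraries are technical replicates. The alternatives were median-of-ratios factors, DESeq2 1.42.0, no low-count filter, a replicate block, length offsets, fewer groups, summed Hspa1a and Hspa1b, coding transcripts only, and leaving out each library.

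Members and lists were chosen with earlier results of these data known. Named were all members, the called genes of 4 other chaperone lists (at most 5 up and 5 down per list and comparison), and the 3 most correlated genes (log2 CPM, prior count 2, mean of at least 1 CPM). Correlation of same-numbered libraries' deviations exceeded 0.1 in every pair, with 3 pairs, only for WT against Vec under KCl (0.106 to 0.236) and S586E against Vec (0.103 to 0.293).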

Additional observations from a re-analysis of the deposited data

Results flagged for a closer look

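The KCl response of Hspa1b was larger at DIV7 than in NT cultures at DIV18 by log2 2.83 (edgeR, adjusted p 0.00135). This was a test of the difference itself, which includes an uncalled fall in NT (log2 -0.59). Age goes with DMSO, guide RNA and library type here, which cannot be told apart. At DIV7 both depolarized libraries lay above both resting ones, and in NT the groups overlapped. No group held enough libraries for a search for outlying samples.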

How the results depend on the processing

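Of 2610 member values recomputed under the alternatives, 2513 kept their direction and side of the threshold, 38 lost and 31 gained a call and 28 reversed; the cause was not tested. The members passing for KCl at DIV7 fell from 7 to 4 with length offsets and with coding transcripts only, and were 4 to 6 without 1 library each. For the mean DIV18 response the count went from 1 to 0 with length offsets, coding transcripts only and only the groups compared (0 to 1 without 1 library each). For the DIV7 minus NT response it was 2 with median-of-ratios factors, 3 without a filter and 2 with DESeq2 (1 to 2 without 1 library each). Without the filter, 1 member passed in Vec KCl against rest, Vec against NT at rest, Vec against NT under KCl and S586E against Vec, and 2 in S586E against WT and in the Vec minus NT response. Vec against NT under KCl also gave 1 (Hspa5) with the replicate block, DESeq2 and only the groups compared.

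Directions reversed with length offsets for Hsp90aa1 in Vec against NT at rest (0.24), WT against Vec at rest (-0.068) and S586E against Vec (-0.082), with coding transcripts only for Hsf1 in S586A against WT (0.0077) and by day (0.42), and with the pseudogene sum for Hspa8 by day (0.32). Without 1 library each, uncalled values crossed 0, with these ranges. Dnajb1: Vec against NT -0.18 to 0.25 at rest and -0.11 to 0.54 under KCl, Vec minus NT response -0.12 to 0.53, WT against Vec under KCl -0.16 to 0.20, S586A against WT -0.16 to 0.20, DIV7 minus NT response -0.24 to 0.41. Hspa1a: NT KCl -0.35 to 0.37, Vec against NT at rest -0.69 to 0.037, day -0.37 to 0.35. Hspa1b: NT KCl -1.17 to 0.0036, mean DIV18 response -0.24 to 0.14. Hsf1: NT KCl -0.27 to 0.18, Vec against NT at rest -0.43 to 0.026, S586A against WT -0.26 to 0.013, DIV7 minus NT response -0.40 to 0.059. Hspb1: Vec KCl -1.23 to 0.36. Hsp90aa1: S586E against Vec -0.025 to 0.11. Hsp90ab1: WT against Vec at rest -0.17 to 0.12, S586E against WT -0.11 to 0.18, WT minus Vec response -0.079 to 0.22. Hsph1: Vec against NT under KCl -0.10 to 0.082. Hspa8: S586A against WT -0.058 to 0.25.

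The labels do not say whether same-numbered libraries are paired in any contrast. In WT against Vec under KCl and S586E against Vec at rest, each of 3 same-numbered pairs correlated above 0.1. There the replicate block changed no member's call. In the other contrasts the block added Hspa8 (0.23), Hsph1 (0.12) and Hsf1 (-0.23) for KCl at DIV7. It also added Hspa5 for Vec against NT under KCl (0.69) and by day (-0.51). Groups of 2 or 3 libraries, the low counts of Hspb1 and reads shared between Hspa1a and Hspa1b limit precision.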
